A study of Rattus norvegicus with 6 samples.

Results

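The 9 myelin protein genes MBP, MOBP, MOG, MAG, CNP, CLDN11, MAL, UGT8 and MYRF were described in cultures labelled as spinal cord neurons. They were chosen by gene symbol, and all 9 were among the 17648 genes of the expression matrix. The cells came from the spinal cord of neonatal Sprague-Dawley rats, and Ara-C, which kills dividing cells, was added to raise neuron purity. There were 6 libraries. In the Glu + siR-Con group (3 libraries) the cells carried a non-targeting siRNA, a short RNA that directs the breakdown of its target. In the Glu + siR-GAL3 group (3 libraries) the siRNA was directed at galectin-3 (GAL3, listed as LGALS3). In the methods and the design text both groups received glutamate, whereas the sample labels name saline for the control libraries and call the GAL3 samples a knockout. The protocol gave 10 μM glutamate for 1 h after 3 days of culture and a further 16 h without it. The study's methods describe a knock-down, so GAL3 is lowered rather than deleted. The labels do not say whether the libraries of a group came from separate cultures, so the p-values measure only the spread between these libraries.

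Myelin is the membrane that oligodendrocytes wrap around axons in the central nervous system. MBP and MOBP hold the cytoplasmic faces of compact myelin together, while MOG and MAG lie at its outer and inner surfaces. CNP keeps cytoplasmic channels open, CLDN11 forms tight junctions between the layers, MAL organises lipid rafts, and UGT8 makes the galactolipid galactosylceramide. MYRF is the transcription factor that switches on many of these genes as an oligodendrocyte matures. In the spinal cord, oligodendrocytes are the main source of these proteins.

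Myelin transcripts were among the most abundant of the whole matrix. The values are linear expression values that the authors derived from FPKM and corrected further, so they are per length but are not FPKM. MBP was 693, 638 and 638 in the siR-Con libraries and 629, 763 and 919 in the siR-GAL3 libraries, here and below in the order of replicates 1 to 3. It ranked between 3 and 6 of all genes in every library, and only 4 mitochondrially encoded genes had a higher mean. MBP alone made up 0.975% to 1.43% of the summed values of a library, and the 9 genes together 1.45% to 2.00%. CNP ranked between 26 and 50, CLDN11 between 50 and 91, and MAG between 77 and 131. UGT8, MOBP and MYRF stayed within the first 922 genes. MOG ranked between 2640 and 3777 and MAL, the lowest member, between 6598 and 8133.

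By mean value the order was MBP (713), CNP (125.8), CLDN11 (68.8), MAG (54.9), UGT8 (21.4), MOBP (20.9), MYRF (16.8), MOG (4.06) and MAL (1.25). UGT8 and MOBP could not be ranked, since UGT8 was the higher in 3 of 6 libraries. MOBP was above MYRF in 5 of 6 libraries. CLDN11 and MAG overlapped in range across libraries, but within each of the 6 libraries CLDN11 was the higher. The other neighbours in this order did not overlap.

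**Figure D1:**
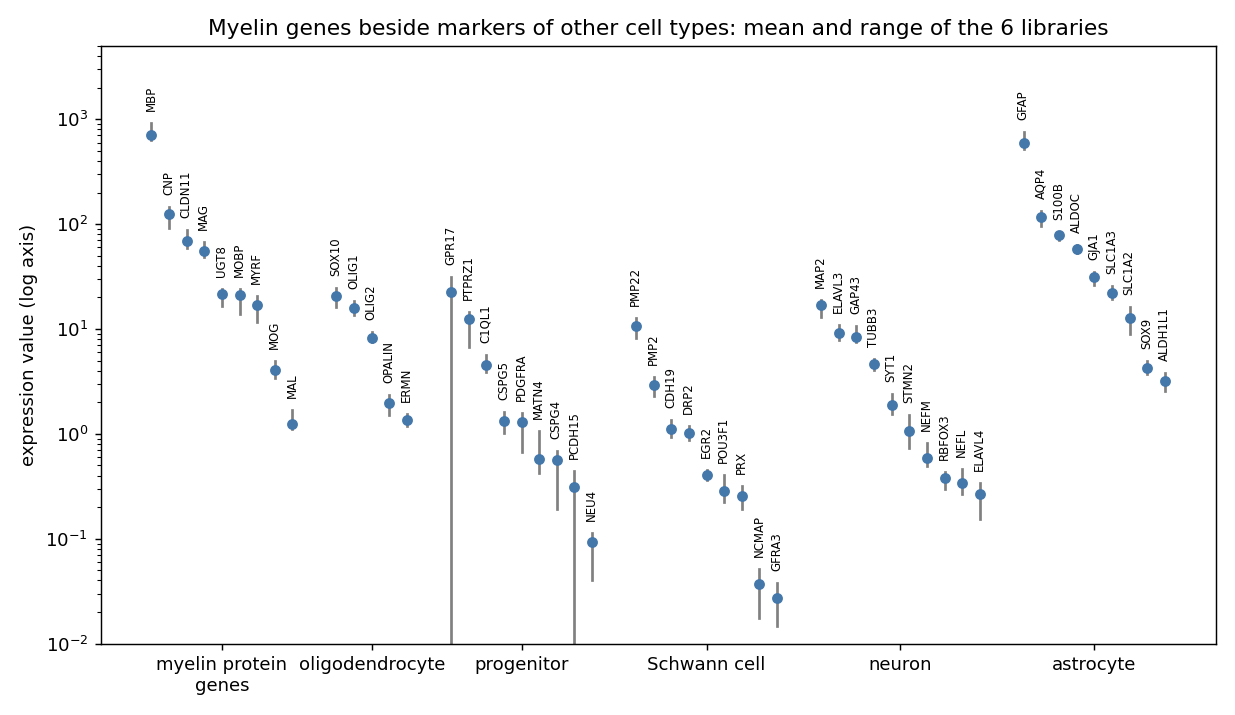
Mean expression value (points) and range over the 6 libraries (lines) on a log axis for the myelin protein genes and for marker genes of 5 cell types. MBP, at a mean of 713, lies above every marker drawn, and every neuronal marker except MAP2 has a mean below those of the myelin genes from MBP to MYRF. The lines of GPR17 and PCDH15 run to the lower edge because their lowest value was below 0.

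The label of the cells was checked against marker genes. The neuronal nuclear protein gene RBFOX3 was between 0.300 and 0.429, the neurofilament gene NEFL had a mean of 0.343, and ELAVL4 a mean of 0.264. MAP2, a dendritic microtubule protein, was the highest of the 10 neuronal markers in the matrix, with a mean of 16.9, and MBP exceeded it by 33.3 to 58.3 times. No neuronal marker was at 0. The summed level of those 10 markers was 40.4 to 45.4 in the siR-Con libraries and 41.3 to 46.2 in the siR-GAL3 libraries, below the level of CNP alone. The astrocyte filament GFAP, in contrast, was between 514.8 and 757.7. Other neuronal markers were higher, with means of 9.10 for ELAVL3, 8.37 for GAP43 and 4.63 for TUBB3, and the lowest astrocyte markers, SOX9 and ALDH1L1, had means of 4.24 and 3.21. The summed level of the 9 astrocyte markers was 805.7 to 1072 over the 6 libraries.

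The transcription factors of the oligodendrocyte lineage were also present, with means of 20.6 for SOX10, 15.9 for OLIG1 and 8.18 for OLIG2. Markers of mature oligodendrocytes beyond the 9 genes were lower, with OPALIN between 1.53 and 2.33 and ERMN between 1.18 and 1.55. EGR2, PRX, NCMAP and GFRA3, which mark Schwann cells, were at most 0.448. The premyelinating marker GPR17, a receptor of committed progenitors, was between 25.7 and 31.0 in 5 libraries and was listed below 0, at -7.25, in siR-GAL3 replicate 2.

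Some properties of the libraries touch the values below. Exactly equal values divided the libraries into 3 sets. Replicate 1 of each group made up set 1. Set 2 was formed by the other siR-Con libraries together with siR-GAL3 replicate 3, and set 3 by siR-GAL3 replicate 2 alone. Equal values occurred among the myelin genes too: MBP was the same in both siR-Con libraries of set 2, as was CNP, and CNP was also the same in both libraries of set 1. The first principal component held 65.2% of the variance and set siR-GAL3 replicate 2 apart from the other libraries. The targeted gene LGALS3 was 77.4, 54.4 and 62.4 in the siR-Con libraries and -1.64, 32.3 and 18.5 in the siR-GAL3 libraries, so every siR-GAL3 library was lower. The matrix gives no read counts, so the depth of each library is unknown and no counting error can be given.

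The comparison of Glu + siR-GAL3 with Glu + siR-Con asks whether lowering GAL3 changed transcript levels in the injured cultures. None of the 9 myelin genes changed past an adjusted p of 0.05 in limma, and 0 of the 8495 genes tested did (0%). At an unadjusted p under 0.05 there were also 0 of the 9 genes, against 8.66% of all genes. On log2(value + 1), a scale that understates the change of low genes, 6 of the 9 had a fold change above 0, against 50% of all genes, and 3 below. The median was 0.13, against -1.19e-05 for all genes (quartiles -0.10 and 0.10). The individual estimates lay between -0.08 for CNP and 0.26 for CLDN11.

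**Figure D2:**
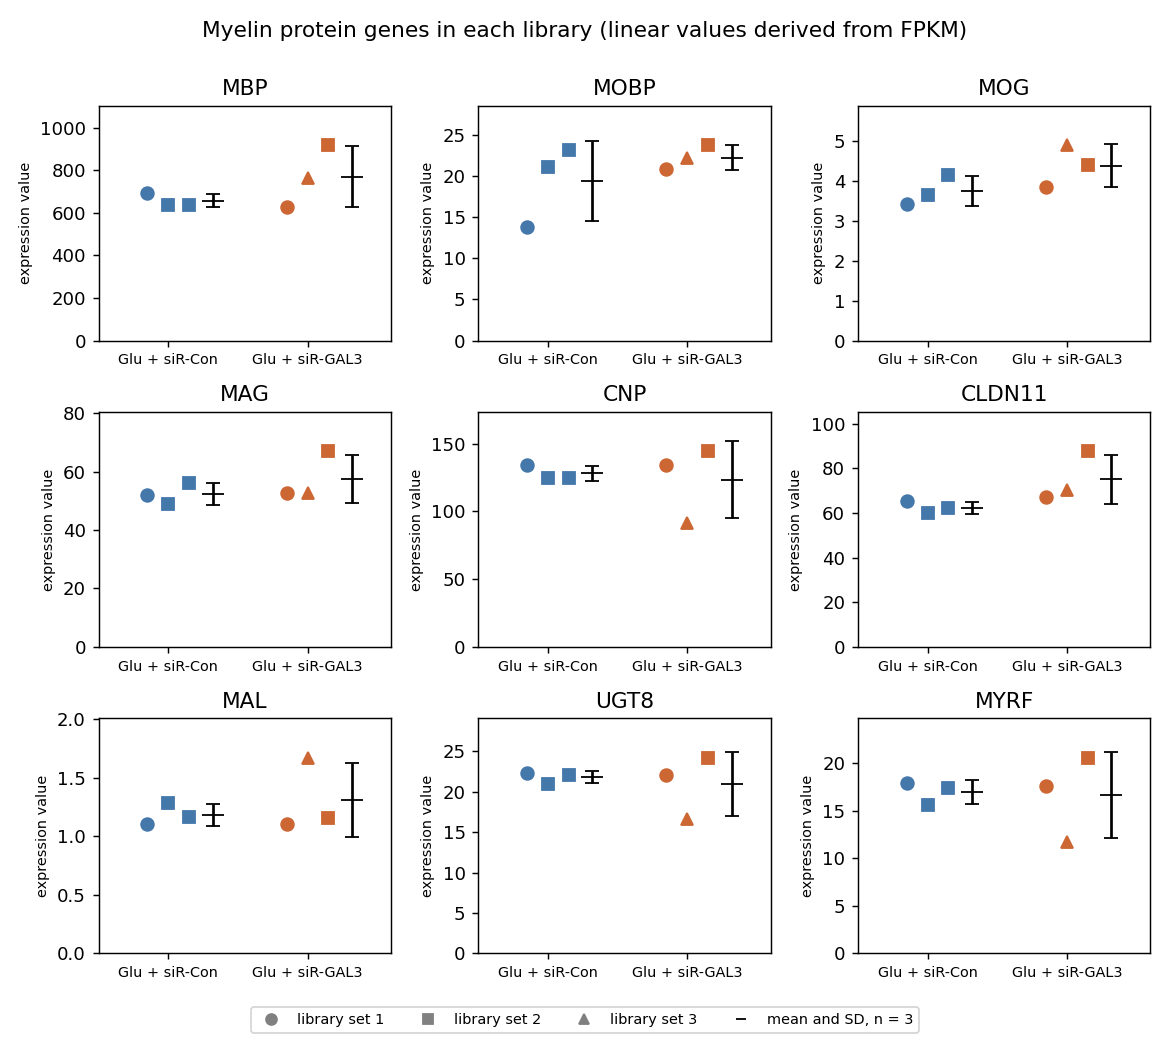
Expression value of each myelin gene in each library (linear axis from 0), with the marker shape giving the library set and the bars the mean and SD of 3 libraries. The groups overlap for every gene except CLDN11, and siR-GAL3 replicate 3 is the highest library for 7 of the 9 genes.

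In compact myelin, MBP averaged 656 ± 31.6 (SD, n = 3) in siR-Con and 769.9 ± 145 (SD, n = 3) in siR-GAL3. The groups overlapped, since siR-GAL3 replicate 1 held the lowest MBP value of all libraries and replicate 3 the highest. The log2 fold change was 0.21 (standard error 0.14, 95% interval -0.11 to 0.54, limma adjusted p = 0.607). MOBP was 13.9, 21.2 and 23.2 in the siR-Con libraries and 20.8, 22.2 and 23.8 in the siR-GAL3 libraries. Here a single library stood apart, siR-Con replicate 1, and the other 5 lay close together. Its log2 fold change of 0.22 (95% interval -0.21 to 0.64) became 0.0041 without that library.

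At the myelin surface, MOG was 3.43, 3.64 and 4.16 in siR-Con and 3.84, 4.91 and 4.41 in siR-GAL3. Only siR-GAL3 replicate 1 fell within the siR-Con range, and the log2 fold change was 0.18 (95% interval -0.05 to 0.42, limma adjusted p = 0.590). MAG, a sialic acid binding adhesion molecule that faces the axon and inhibits its regrowth, was 51.9, 48.8 and 56.1 in siR-Con. In siR-GAL3 it was 52.8, 52.8 and 67.0, so that 2 of these libraries lay inside the siR-Con range. The log2 fold change of MAG was 0.13 (95% interval -0.14 to 0.40). The interval of each of these genes takes in 0.

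CLDN11 was the myelin gene with the smallest p and the one whose groups did not overlap. Its values were 65.2, 59.8 and 62.3 in siR-Con and 67.4, 70.5 and 87.7 in siR-GAL3. The lowest siR-GAL3 library lay just above the highest siR-Con library, and siR-GAL3 replicate 3 stood well above both others. The mean was 62.5 ± 2.71 (SD, n = 3) in siR-Con and 75.2 ± 10.9 (SD, n = 3) in siR-GAL3, 20.4% higher. The log2 fold change was 0.26 (standard error 0.11, 95% interval -0.0041 to 0.52, unadjusted p = 0.0528 and adjusted p = 0.577 in limma), and an exact permutation test gave a two-sided p of 0.1, the smallest possible for 3 against 3. Of the 9 genes, 1 did not overlap, against 20.5% of all genes. It was higher, against 10.3% in that direction, and 0 were lower, against 10.3%.

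**Figure D3:**
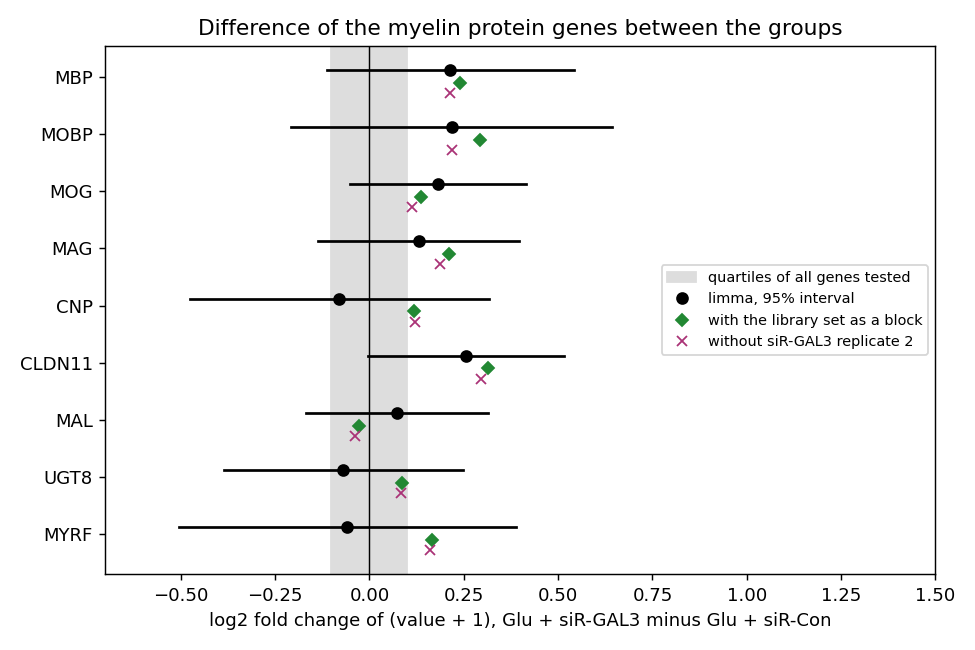
Log2 fold change of (value + 1) for each myelin gene, siR-GAL3 minus siR-Con, with the limma 95% interval (black), the estimate blocked by library set (green diamonds) and the estimate without siR-GAL3 replicate 2 (purple crosses). The grey band spans the quartiles of all genes tested. Every interval takes in 0, and CNP, MAL, UGT8 and MYRF change sign between the estimates.

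CNP, the 2',3'-cyclic nucleotide phosphodiesterase of non-compact myelin, was 134.5, 124.9 and 124.9 in siR-Con and 134.5, 91.4 and 144.3 in siR-GAL3. UGT8 was 22.3, 21.0 and 22.1 in siR-Con and 22.1, 16.6 and 24.2 in siR-GAL3. MYRF was 17.9, 15.5 and 17.4 in siR-Con and 17.6, 11.7 and 20.6 in siR-GAL3. In all 3 genes siR-GAL3 replicate 2 was the lowest library and replicate 3 the highest, with the siR-Con libraries in between. Their log2 fold changes were -0.08, -0.07 and -0.06, with 95% intervals of -0.48 to 0.32, -0.39 to 0.25 and -0.50 to 0.39. The signs rested on siR-GAL3 replicate 2, and without it the estimates were 0.12, 0.08 and 0.16.

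The ratios among these 3 genes varied little between libraries. The ratio of CNP to UGT8 lay between 5.51 and 6.08, that of CNP to MYRF between 7.02 and 8.04, and that of UGT8 to MYRF between 1.18 and 1.42. The ratio of MAG to CLDN11 also varied little, between 0.749 and 0.900. By contrast, the ratio of MBP to CNP was between 4.67 and 6.37 in 5 libraries and 8.34 in siR-GAL3 replicate 2, and that of CLDN11 to CNP was 0.772 there, against 0.479 to 0.608 elsewhere. So siR-GAL3 replicate 2 was low in CNP, UGT8 and MYRF, but not in MBP, CLDN11, MOG or MAL. MAL was 1.10, 1.28 and 1.16 in siR-Con and 1.10, 1.67 and 1.15 in siR-GAL3, with the high value again in replicate 2.

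**Figure D4:**
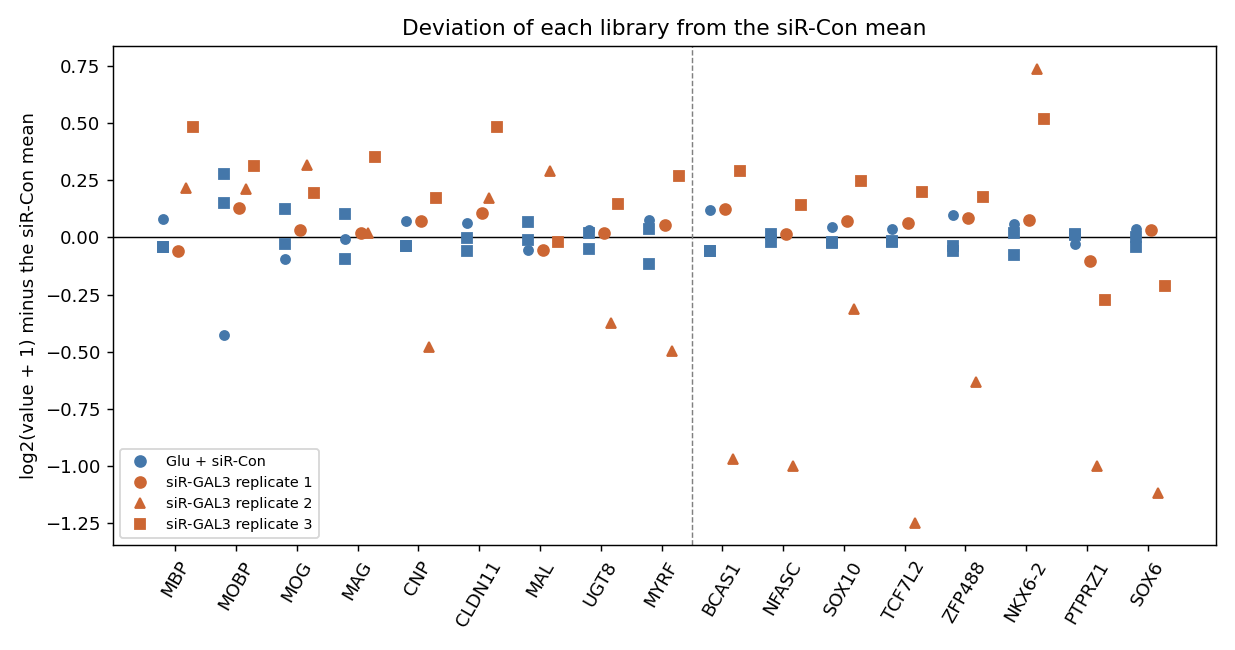
Difference of each library from the siR-Con mean on log2(value + 1) for the myelin genes (left of the dashed line) and for other oligodendrocyte lineage genes (right, chosen after their values were seen). Marker shapes give the library set; siR-GAL3 replicate 2 (triangles) is 0.48 below the siR-Con mean for CNP, 0.50 below for MYRF and 1.25 below for TCF7L2, and above it for MBP, MOG and MAL.

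In siR-GAL3 replicate 2 other lineage genes were lower by more. TCF7L2, a transcription factor of oligodendrocytes entering differentiation, was 2.46 there and between 7.12 and 8.46 in the other libraries. BCAS1, a protein of premyelinating oligodendrocytes, was 44.8 there and 85.0 to 108.7 elsewhere, and NFASC, a cell adhesion molecule of paranodes and axon initial segments, was 34.3 against 68.6 to 76.9. SOX6, which holds progenitors back from differentiation, was 0.859 against 2.48 to 3.14. NKX6-2, a factor of maturing oligodendrocytes, was instead highest in that library, at 4.36. These genes were brought together after their values were seen. This library was the lowest of the 6 for 35.1% of all genes and the highest for 41.5%, beside 3 of 9 and 2 of 9 myelin genes. The first share is near the background and the second below it. It had no control library in its set, and the part that the library itself has in these values was not tested.

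siR-GAL3 replicate 3 held the highest value for 7 of the 9 genes, all but MOG and MAL, against 12.3% of all genes. This count was taken after the values were seen. The comparison within library sets gives each of these libraries its own controls. In set 2, siR-GAL3 replicate 3 exceeded the mean of its siR-Con libraries by 0.53 for MBP, 0.52 for CLDN11, 0.35 for MAG and 0.31 for MYRF on the log2 scale. In set 1, siR-GAL3 replicate 1 differed from siR-Con replicate 1 by -0.14, 0.05, 0.02 and -0.02 for the same genes. MOBP differed more in set 1, by 0.55 against 0.10 in set 2. The only control of set 1 is siR-Con replicate 1, the library that stood apart for MOBP at 13.9, so the MOBP results within sets rest largely on it. MOG was 0.13 and 0.15 higher in the sets, and MAL -0.0008 and -0.05. MAG, CLDN11, MOBP and MOG were higher within both sets, 4 of 9 genes against 25.6% of all genes, and MAL alone was lower in both, against 28.4%. When limma was blocked by library set, CLDN11 and MOBP had an unadjusted p under 0.05 (0.0230 and 0.0297), 2 of 9 genes against 13.8% of all genes. Both were higher, against 5.92% in that direction, and 0 were lower, against 7.9%. Neither passed adjustment, with adjusted p of 0.271 and 0.303 in that limma fit, where 1.25% of all genes did. In the blocked fit 8 of the 9 had a fold change above 0, against 49.3% of all genes. Without siR-GAL3 replicate 2 this was also 8 of 9, against 48.9%. CLDN11 alone then had an unadjusted p under 0.05 in limma (0.0232, adjusted p = 0.221), 1 higher against 6.98% of all genes and 0 lower against 9.36%. An adjusted p under 0.05 was reached by 0 of the 9, against 1.97%, and a log2 fold change beyond 1 with an unadjusted p under 0.05 by 0, against 0.341%.

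MYRF acts on other myelin genes through DNA, so the promoters of the members were searched for short motifs. RefSeq promoter windows of build GRCr8 ran from 250 bases before to 50 after a transcription start. They were held for 7 of the 9 genes, 8 windows in all, with none for MOG and MYRF. A gene was counted if any of its windows held a motif, whereas the background below is a share of windows. CTGGCAC or CTGGTAC, letters of the MYRF motif, stood on either strand in the windows of MAG, CNP, MAL and CLDN11, 4 of these 7 genes, against 6.78% of all 33469 windows. The stretches are printed to show the motif in each of these 4 genes, 5′ to 3′ on the strand of the motif, with the motif in capitals. They are chr1:95291121-95291149 (minus strand), chr10:86011369-86011397 (plus), chr3:135341532-135341560 (plus) and chr2:114149642-114149670 (plus).
MAG: gcaggcggcccCTGGCACccagggggcag
CNP: acagctgcttcCTGGCACccaggtttcga
MAL: ctgaatcacctCTGGCACagccctaaaac
CLDN11: cgggtcaggctCTGGTACagggtgtggaa
MAG and CNP shared the run CCTGGCACCCAGG, 13 bases long, and MAL shared the 7 bases of the motif with both. CLDN11 held the other form of the motif, and its longest shared runs were 5 bases with MAG, 4 with CNP and 6 with MAL. The motif began 94 bases before the start in MAG and 124 before it in CNP, and the bases on the other strand were at 126 in MAL and 120 in CLDN11. A match of letters is a description and not a binding site.

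SOX10 works together with MYRF at myelin genes, and its motif was searched as AACAAAG or AACAAT on either strand. The windows of CNP, MBP and MOBP held it, 3 of 7 genes against 16.7% of all windows. MOBP held AACAAAG 5 times on the other strand, which reads CTTTGTT, and is shown for that reason. It was the 1 window of 33469 (0.00299%) with at least 5 copies. That cutoff equals the count in MOBP itself, so the share is only a description. The stretch is chr8:128746982-128747041 of GRCr8, plus strand.
MOBP: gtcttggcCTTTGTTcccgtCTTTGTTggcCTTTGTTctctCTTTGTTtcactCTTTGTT
The matches in these windows did not overlap each other. SOX10 itself was 21.1, 20.1 and 20.0 in the siR-Con libraries and 21.5, 16.2 and 24.4 in the siR-GAL3 libraries, the same order of siR-GAL3 libraries as for CNP, UGT8 and MYRF. Its log2 fold change was 0.0029 (95% interval -0.33 to 0.33).

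Other genes of the myelin pathway came from lists written with earlier results of these data known. Of 29 further central myelin genes, 22 were tested, and 14 had a fold change above 0 and 8 below (median 0.08 on the log2 scale). None had an adjusted p under 0.05 in limma, and 4 were higher with an unadjusted p under 0.05, against 4.41% of all genes in that direction. None was lower, against 4.25%. PLLP, plasmolipin, a raft protein related to MAL, was 8.68, 7.34 and 7.24 in siR-Con and 9.35, 11.3 and 11.7 in siR-GAL3. The groups did not overlap, and the log2 fold change was 0.42 (standard error 0.11, limma adjusted p = 0.309). GJB1, the gap junction protein connexin 32, was 2.31, 1.96 and 1.95 in siR-Con and 2.53, 3.01 and 3.25 in siR-GAL3, with a log2 fold change of 0.35 (limma adjusted p = 0.333). EVI2A had a log2 fold change of 0.20, and TF, transferrin, named here after its value was seen, 0.33. BCAS1, among the most abundant of the list, had -0.18, and changed sign, to 0.21, without siR-GAL3 replicate 2.

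Among 14 genes of myelin lipid synthesis and turnover, all tested, 11 were above 0 and 3 below, with a median of 0.03. None had an adjusted p under 0.05, and 0 were lower with an unadjusted p under 0.05 in limma, against 4.25% of all genes. In the other direction 1 was higher, against 4.41%. This was GAL3ST1, which adds sulfate to the galactosylceramide that UGT8 makes. It was 3.03, 2.80 and 2.80 in siR-Con and 3.20, 3.96 and 3.84 in siR-GAL3, without overlap, a log2 fold change of 0.26 (limma adjusted p = 0.460). ENPP2 and CERS2, the ceramide synthase of very long chains, had 0.15 and 0.14, and ELOVL1, the most abundant, 0.02.

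Of 11 transcription factors and regulators that drive oligodendrocyte differentiation, 7 were above 0 and 4 below, with a median of 0.02. None had an adjusted p under 0.05. NKX6-2 was the 1 gene with an unadjusted p under 0.05 in limma, against 8.66% of all genes. It was 2.34, 2.25 and 2.04 in siR-Con and 2.38, 4.36 and 3.60 in siR-GAL3 (log2 fold change 0.45, limma adjusted p = 0.526). NKX2-2 and ZFP24 followed by p, at 0.14 and -0.13, and OLIG1, the most abundant after SOX10, had 0.17. Without siR-GAL3 replicate 2, 6 of the 11 had an unadjusted p under 0.05, against 16.3% of all genes, and none an adjusted p under 0.05. Of 11 inhibitors of differentiation, 7 were tested, 2 above 0 and 5 below, with a median of -0.08. Their smallest p values belonged to GPR37, SOX6 and GPR17, with log2 fold changes of 0.15, -0.43 and -1.51, and ID4, also among the most abundant, had -0.08. The GPR17 estimate rests on its value below 0 in siR-GAL3 replicate 2, which was set to 0. Without that library GPR17 was 0.15 and SOX6 -0.09, and the median of the list was 0.02.

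The proteins that myelin inhibitors and myelin membranes meet on axons were tested in the same way, and none had an adjusted p under 0.05. Of 10 receptors and partners of the myelin inhibitors, 6 were tested, 1 above 0 and 5 below (median -0.08), with log2 fold changes of 0.16 for OMG, -0.42 for LRP1 and -0.09 for RTN4, which encodes Nogo and is the most abundant. Without siR-GAL3 replicate 2, LRP1 was -0.11 and the median -0.02. Of 10 axonal partners, 7 were tested, 1 above 0 and 6 below (median -0.14), with -0.25 for the contactin CNTN1, -0.15 for CADM4, -0.14 for ERBB3 and -0.28 for NFASC. This direction rested on siR-GAL3 replicate 2, without which the median was 0.04 and NFASC 0.08. On both lists 0 genes had an unadjusted p under 0.05 in limma, against 8.66% of all genes. Without siR-GAL3 replicate 2 it was likewise 0, against 16.3%.

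Markers of other cells moved with the groups, and in bulk RNA fewer cells of a type and less RNA per cell cannot be told apart. All 12 tested microglia markers of 13 had a log2 fold change above 0 (median 0.25, 6 with an unadjusted p under 0.05, against 4.41% of all genes in that direction, and 0 with an adjusted p under 0.05 in limma). The summed level of the 13 was 113.5 to 134.8 in siR-Con and 145.5 to 165.0 in siR-GAL3. C1QC and C1QB were the most abundant (log2 fold changes 0.30 and 0.27), and CD68, PTPRC and AIF1 had the smallest p (0.54, 0.43 and 0.57). Blocked by library set, 3 of the 12 had an adjusted p under 0.05 in limma, against 1.25% of all genes. Of the 6 neuronal markers tested, 4 were above 0 and 2 below (median 0.10). In limma 1 had an unadjusted p under 0.05, against 8.66% of all genes, and 0 an adjusted p under 0.05. STMN2, a growth-associated protein, averaged 0.822 ± 0.137 (SD, n = 3) in siR-Con and 1.29 ± 0.184 (SD, n = 3) in siR-GAL3, without overlap (log2 fold change 0.33, unadjusted p = 0.00597 and adjusted p = 0.325 in limma). Of 9 astrocyte markers 7 were below 0 (median -0.17), with sums of 932.6 to 1072 and 805.7 to 870.0. Of these markers 4 were lower with an unadjusted p under 0.05 in limma, against 4.25% of all genes in that direction. Of 5 fibroblast markers 4 were below 0 (median -0.42), with sums of 43.0 to 50.6 and 33.0 to 38.1. At an unadjusted p under 0.05 in limma 3 were lower, against 4.25% of all genes. On both lists 0 had an adjusted p under 0.05 in limma. The endothelial markers were too low to be tested. The sum of the 9 myelin genes was 934 to 1003 in siR-Con and 948.8 to 1292 in siR-GAL3, and so overlapped. All 5 tested progenitor markers were below 0 (median -0.25), PTPRZ1 having the smallest p with -0.46. Without siR-GAL3 replicate 2 the median was -0.17, PTPRZ1 was -0.19 and GPR17 was above 0, at 0.15. The sum of the 9 progenitor markers in the matrix was 49.4 to 53.2 in siR-Con and 8.69 to 52.3 in siR-GAL3, with the value of GPR17 below 0 in the lowest. Among Schwann cell markers PMP22, a peripheral myelin protein, was 12.1, 11.7 and 12.7 in siR-Con and 8.18, 10.4 and 8.94 in siR-GAL3 (log2 fold change -0.38, limma adjusted p = 0.302), and its adjusted p was 0.0290 when limma was blocked by library set. The part of these markers in the myelin values was not tested.

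The genes whose profile over the 6 libraries was closest to the mean standardized profile of the 9 myelin genes were KNDC1, MCAM, BNIP3L, GLUL and SETD3, with Pearson r from 0.913 to 0.943 over 2593 genes considered. GLUL, glutamine synthetase, was 62.8, 58.0 and 65.1 in siR-Con and 65.8, 61.4 and 74.4 in siR-GAL3. Like 7 of the 9 myelin genes, all 5 were highest in siR-GAL3 replicate 3. The mean profile they were picked to match was itself highest in that library, so this follows from how they were picked. The libraries share their sets and the authors' correction, so these values are a description. None of the 5 is on a list of myelin or oligodendrocyte genes used here, and 2 of them stayed among the closest 5 once the group means were removed.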

How the data were processed

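RNA of 6 samples labelled as spinal cord neurons was sequenced, 3 per group. The authors mapped reads with STAR, counted them per gene with HTSeq and estimated FPKM, then removed batch effects, standardized the data and corrected differences within groups. The genome build is not given in the sources used here. The deposited values were treated as expression scores, linear and FPKM-derived. The design had been written for FPKM, and the fit on a log scale was kept. Of all values 3.86% were below 0, but none of a myelin gene, and the summed values per library were 64313 to 64714. The SD is therefore the spread left after the authors' correction, and depth is unknown. A correction within groups can shrink that spread and make p-values too small.

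Values below 0 were set to 0 and limma 3.58.1 (R 4.3.3, trend on) was run on log2(value + 1). Of all genes, 8495 reached a mean of 1 and were tested, with Benjamini-Hochberg adjustment. The study criteria (|log2 fold change| above 1 and unadjusted p under 0.05) were met by 0 of the 9 genes and by 27 genes in all. Single genes were compared by exact permutation. Tables and motifs were made in Python 3.11.15 with NumPy 2.4.6, and the fit was tested on simulated data. Named genes were the 9 members, LGALS3, from each list those with the 3 smallest p and the 2 highest means, and the 5 closest profiles. Others are marked as chosen after their values were seen, or serve as cell type markers. The members and lists were chosen with earlier results of these data known. In RefSeq GRCr8, used for names and promoter windows, 16309 rows matched a symbol. Alternatives were another pseudocount, other filters, 2 scalings, no trend, no log, blocks, and each library left out. Some genes of the lists are not reported here by name.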

Additional observations from a re-analysis of the deposited data

How the results depend on the processing

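In limma no myelin gene had an adjusted p under 0.05 under any alternative run. At an unadjusted p under 0.05 the number of myelin genes was 0 of 9, against 8.66% of all genes. It became 1 (CLDN11) after quantile normalization, against 9.13%, and 1 (CLDN11) without the intensity trend, against 8.64%. Blocked by library set it was 2 (CLDN11 and MOBP), against 13.8%. With each library left out in turn it lay between 0 and 3. It was 3 without siR-GAL3 replicate 1 (MBP, MOG and CLDN11, against 14.7% of all genes) and 1 without siR-GAL3 replicate 2, against 16.3%. The number with a fold change below 0, 3 of 9, was 1 when blocked by library set and 1 to 3 with a library left out. The median log2 fold change of the 9 genes, 0.13, lay between 0.0455 (without siR-Con replicate 1) and 0.19 with a library left out. MBP, MOBP, MOG, MAG and CLDN11 kept a positive sign under every alternative that tested them, but without siR-GAL3 replicate 3 MAG was 0.02, MBP 0.08 and CLDN11 0.14. Without siR-Con replicate 1 MOBP was 0.0041, and without siR-GAL3 replicate 2 MOG was 0.11. CNP was 0.0141 after quantile normalization. Blocked by library set, the log2 fold changes were 0.118 for CNP, -0.0269 for MAL, 0.0870 for UGT8 and 0.165 for MYRF, and without siR-GAL3 replicate 2 they were 0.121, -0.0372, 0.0827 and 0.161. With a library left out, CNP reached -0.206, UGT8 -0.177 and MYRF -0.222 without siR-GAL3 replicate 3, and MAL 0.136 without siR-GAL3 replicate 1. The block gives no weight to that library, so these fits are not separate checks. Over all genes the number with an unadjusted p under 0.05, 736 of 8495 (8.66%), was 1623 of 17648 without a filter (9.2%), 121 of 1120 with a mean of at least 10 (10.8%), 1174 when blocked by library set, and 344 to 1388 with a library left out. The correlations of same-numbered libraries' deviations from the group means were -0.17, -0.07 and 0.04. They cannot settle whether the replicate numbers pair the libraries, since siR-GAL3 replicate 2 stood apart and enters its group mean. Replicate 1 of siR-Con and replicate 1 of siR-GAL3 shared 1364 exactly equal values. With the replicate number as a block the median was 0.13 and 0 of the 9 genes had an unadjusted p under 0.05, while 6 of all genes had an adjusted p under 0.05 in limma. The depth of the libraries is unknown, and 3 libraries per group limit the precision. The causes of these changes were not tested.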
